A study of Mus musculus with 4 samples.

Results

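The heat shock proteins and chaperonins are the molecular chaperones of the cell, and the genes described here were chosen by name alone. A gene was taken where its name began with Hsp90, Hspa, Hspb, Hspd, Hspe, Hsph, Dnaja, Dnajb or Dnajc, or where it was Hsf1, Hsf2, Tcp1 or one of the chaperonin subunit genes Cct2 to Cct8, pseudogenes left out. The table held 85 such names, of which 73 had a mean level of at least 1 FPKM (fragments normalised to transcript length and library size) over the 4 libraries, among 12875 named genes at that level and 29144 features in all. Subunit 6 of the chaperonin has the genes Cct6a and Cct6b in mouse, and both were read as covered by Cct2 to Cct8. Hspbp1 and Hspbap1 came in through the first letters of their names only and are not chaperones of the HSPB family.

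The libraries came from dissected striatum of Huntington's disease knock-in mice on the C57BL/6J background, aged 21 weeks, and were made from poly A+ RNA. There was 1 library for each of 4 genotypes. HDQ150/150 and HDQ200/200 carry an expanded allele on both chromosomes, HDQ315/+ carries 1 expanded and 1 wild-type allele, and HDQ+/+ is the wild type, as the genotypes are written. The sources used here do not say how many animals, or of which sex, gave each library, nor whether their tissue was pooled. With no replicate library there was no spread between animals, so no test was run, and every difference below is one between libraries.

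Chaperones hold unfolded proteins, help them fold and pass the damaged ones on for degradation. HSP70 proteins bind and release short exposed stretches of a client, J-domain proteins (DNAJA, DNAJB and DNAJC) bring the clients and trigger ATP hydrolysis, HSP110 proteins exchange the nucleotide, and HSP90 completes the maturation of kinases and receptors. The barrel-shaped chaperonins enclose whole chains, HSP60 with its lid HSP10 in mitochondria and TRiC in the cytosol. Under proteotoxic stress the transcription factor HSF1 binds heat shock elements, inverted repeats of the unit GAA, and raises a subset of these genes. The system is studied in Huntington's disease because several of its members, Dnajb6 and TRiC among them, hold back the aggregation of polyglutamine proteins.

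The promoters of 4 loci are shown because their genes recur below: Dnajb6, the pair Hspd1 and Hspe1 and Hspa1a for their heat shock elements, and Dnajb14 as the gene that differed most. They are the 250 bases before the RefSeq start (GRCm38.p6), read 5′ to 3′ on the gene's own strand. For the head-to-head pair Hspd1 and Hspe1 they are the 215 bases between the Hspe1 start and the Hspd1 start that faces it, read on the + strand. Another RefSeq start of Hspd1 lies past the Hspe1 start, and the bases before it held no match. Capitals mark heat shock elements, in 3 units (GAANNTTCNNGAA or TTCNNGAANNTTC) or, for Hspa1a, in 2 units (GAANNTTC or TTCNNGAA). The 3-unit letters contain the 2-unit letters, and each pair of patterns covers both strands.
Dnajb6, chr5:29735648-29735897, + strand: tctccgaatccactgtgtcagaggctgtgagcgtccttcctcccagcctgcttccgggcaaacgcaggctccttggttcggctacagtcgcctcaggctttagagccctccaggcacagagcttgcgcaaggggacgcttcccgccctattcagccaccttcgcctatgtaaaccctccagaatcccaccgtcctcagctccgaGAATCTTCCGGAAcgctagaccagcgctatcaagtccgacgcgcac
Hspd1 and Hspe1, chr1:55087933-55088147, + strand: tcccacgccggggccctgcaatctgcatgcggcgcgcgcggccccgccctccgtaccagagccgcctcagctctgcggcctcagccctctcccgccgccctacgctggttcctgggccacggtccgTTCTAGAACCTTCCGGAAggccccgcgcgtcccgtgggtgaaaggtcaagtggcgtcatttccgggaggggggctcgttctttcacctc
Hspa1a, chr17:34972157-34972406, - strand: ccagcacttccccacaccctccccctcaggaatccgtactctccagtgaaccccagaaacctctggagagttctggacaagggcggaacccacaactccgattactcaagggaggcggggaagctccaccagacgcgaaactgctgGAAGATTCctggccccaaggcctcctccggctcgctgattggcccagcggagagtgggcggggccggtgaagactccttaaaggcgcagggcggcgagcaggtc
Dnajb14, chr3:137867425-137867674, + strand, no match: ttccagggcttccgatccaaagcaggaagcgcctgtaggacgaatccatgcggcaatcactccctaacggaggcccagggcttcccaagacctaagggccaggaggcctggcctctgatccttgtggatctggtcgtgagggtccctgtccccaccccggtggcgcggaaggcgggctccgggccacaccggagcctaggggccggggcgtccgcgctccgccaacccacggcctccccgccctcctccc
Of the 73 genes, 60 had 250 bases before a start in the table used and 13 had none. The 60 had 79 such windows, since a gene can have several starts, and a gene was counted where any of them held the letters. The 3-unit letters stood in 3 of the 60 (5%), Dnajb6, Hspd1 and Hspe1, the last pair by the same bases between them, where 2 matches overlap. Of 27025 genes with a window, 0.514% held them. The 2-unit letters stood in 14 of the 60 (23.3%) and in 14.5% of all genes, so most of the 60 held neither run of letters in these windows. A match is a run of letters and was not tested as a site.

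The libraries held between 25058760 (HDQ150/150) and 36877644 (HDQ+/+) fragments, and the 73 genes took 245254 fragments in HDQ150/150, 330265 in HDQ200/200, 277388 in HDQ315/+ and 394556 in HDQ+/+. The tissue label was checked with marker genes. All 12 projection neuron markers of the striatum were detected in each library, but their summed FPKM was 1581, 1549 and 2388 in HDQ150/150, HDQ200/200 and HDQ315/+, against 3747 in HDQ+/+, with 11, 11 and 7 of the 12 lower by 1.5-fold or more. Cortical glutamatergic neuron markers summed to 293, 164 and 114 FPKM in the mutants and 85.5 FPKM in HDQ+/+, thalamic markers to 17.7, 18.9 and 102 FPKM against 18.0 FPKM, and choroid plexus markers to 68.3, 54.4 and 314 FPKM against 1558 FPKM. All 6 cortical markers were higher in HDQ150/150 and in HDQ200/200. All 6 thalamic markers were higher in HDQ315/+, and 1 of them, Slc17a6, also in HDQ150/150 (1.02) and HDQ200/200 (0.69). All 6 choroid plexus markers were lower in each mutant. Of 6 liver genes tested, 4 were higher in HDQ315/+ than in HDQ+/+ and 1 lower, Ttr (-2.31), which is also a choroid plexus marker. Albumin (Alb) stood at 77.0 FPKM in HDQ315/+, against 0.118, 0.101 and 0.132 FPKM in HDQ150/150, HDQ200/200 and HDQ+/+. The liver genes summed to 257, 219 and 669 FPKM in the mutants and 1774 FPKM in HDQ+/+, where Ttr alone stood at 1520 FPKM. The part of cell and tissue makeup in the results below was not tested, and in bulk tissue fewer cells of a type and less RNA per cell cannot be told apart.

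The chaperone genes were well expressed. Their median of mean FPKM was 22.5, against 10.2 for all tested genes, and 58 of the 73 reached 10 FPKM. The constitutive HSP70 gene Hspa8 and the cytosolic HSP90 genes Hsp90ab1 and Hsp90aa1 alone made up 42.6%, 40.8% and 41.8% of the summed FPKM of the 73 genes in HDQ150/150, HDQ200/200 and HDQ315/+, and 39.9% in HDQ+/+. The sum itself was 4186, 3705 and 4689 FPKM in the mutants and 4252 FPKM in HDQ+/+, so HDQ200/200 was lowest and HDQ315/+ highest. As a share of the scaled counts, which are not divided by transcript length, the genes took 0.979%, 0.987% and 1.05% in the mutants and 1.07% in HDQ+/+. On that measure HDQ200/200 was not the lowest library. The lowest levels that passed were those of Hspa1a (mean 1.47 FPKM), Hspbap1 (1.54 FPKM) and Dnajb3 (1.76 FPKM), and the highest that did not were those of Hspa1b (0.968 FPKM), Hspb3 (0.962 FPKM) and Dnajb13 (0.698 FPKM). The 12 names under the limit were these 3 with Hspb2, Hspb7, Hspb9, Dnajb7, Dnajb8, Dnajc5b, Dnajc5g, Dnajc22 and Cct6b.

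**Figure D1:**
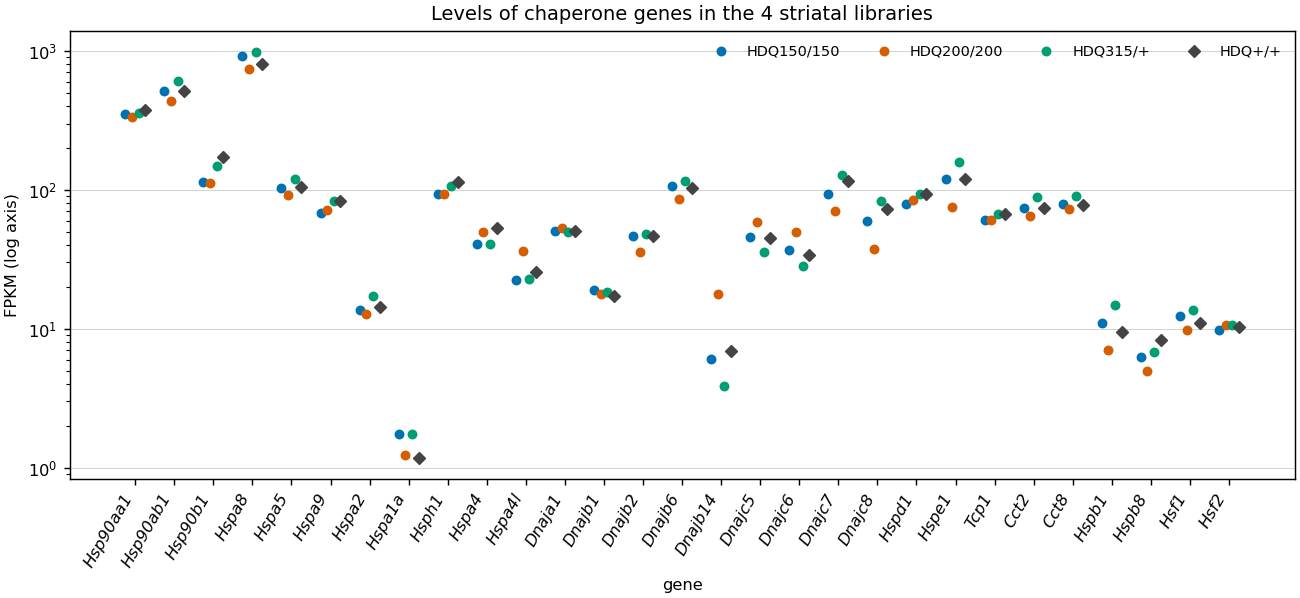
FPKM (log axis) of 29 chaperone genes, ordered by role, in HDQ150/150, HDQ200/200, HDQ315/+ and HDQ+/+, 1 point per library and no error bar because there is 1 library per genotype. Hspa8 lies between 741 and 989 FPKM and Hspa1a between 1.17 and 1.75 FPKM, while Dnajb14 stands at 3.89 FPKM in HDQ315/+ and 17.8 FPKM in HDQ200/200.

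Few chaperone genes differed from the wild type by the size used throughout, 1.5-fold on the scale of log2(FPKM + 1), which understates the change of low genes. In HDQ150/150 none of the 73 was past it in either direction, where 2.92% of all 12875 tested genes were higher and 3.32% lower. In HDQ200/200, 2 were higher (background 5.37%) and 8 lower (background 8.78%). In HDQ315/+, 4 were higher (background 2.90%) and 1 lower (background 2.12%). No gene was higher in all 3 mutants (background 0.202%) and none lower in all 3 (background 0.598%). In at least 1 mutant 14 of the 73 genes, or 19.2%, passed the fold, against 20.1% of all tested genes, a share near the background. The 3 comparisons share the HDQ+/+ library.

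The middle of the distribution was also close to that of other genes. The median log2 ratio of the chaperone genes was -0.03 in HDQ150/150, -0.17 in HDQ200/200 and 0.07 in HDQ315/+, where all tested genes had -0.01, -0.05 and 0.04. Their interquartile range was 0.21, 0.42 and 0.23, narrower in these libraries than the 0.33, 0.53 and 0.38 of all tested genes. Within 1.2-fold of HDQ+/+ lay 56, 40 and 57 of the 73 genes (76.7%, 54.8% and 78.1%), against 70.1%, 49.03% and 64.7% of all tested genes. The chaperone genes were also higher in level (median of mean FPKM 22.5 against 10.2), and the spreads were not compared at matched level. The split of calls in HDQ200/200 depended on the unit. On scaled counts 3 chaperone genes were higher and 4 lower there, and of all tested genes 1290 were higher and 1029 lower, against 692 higher and 1130 lower on FPKM. In HDQ315/+ the split of all tested genes was 619 higher and 698 lower on scaled counts, against 373 and 273 on FPKM.

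**Figure D2:**
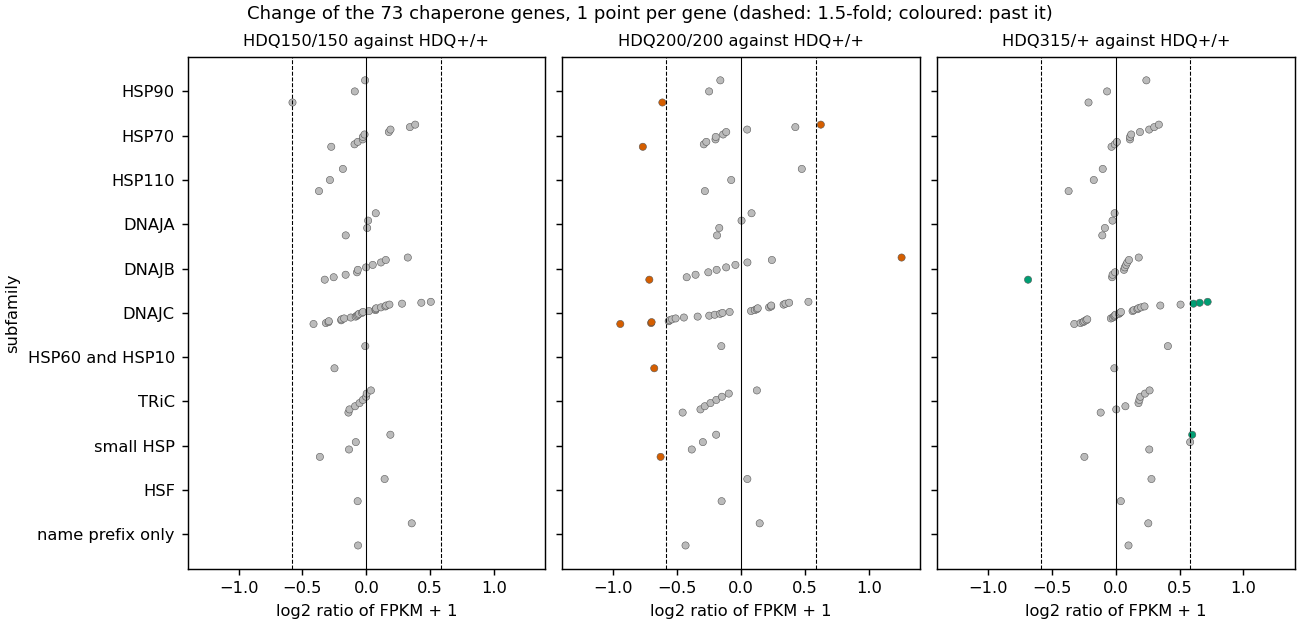
Log2 ratio of FPKM + 1 to HDQ+/+ (x axis) of the 73 chaperone genes by subfamily (y axis), 1 panel per mutant, points past 1.5-fold coloured. No point is coloured in HDQ150/150, 10 are in HDQ200/200 and 5 in HDQ315/+, and the point farthest to the right is Dnajb14 at 1.26 in HDQ200/200.

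Of the HSP90 genes, the cytosolic ones stayed near the wild-type level and the one of the endoplasmic reticulum was lower. Hsp90ab1 stood at 514, 435 and 612 FPKM in HDQ150/150, HDQ200/200 and HDQ315/+ and at 518 FPKM in HDQ+/+ (log2 ratios -0.01, -0.25 and 0.24). Hsp90aa1, the stress-inducible form, stood at 354, 337 and 359.7 FPKM in the mutants and 377 FPKM in HDQ+/+ (-0.09, -0.16 and -0.07). Neither passed the fold. Of the 50-base words of the Hsp90aa1 transcript, 58.5% occur in transcripts of other genes, 51.5% in those of Gm12346. Its count depends on how the authors placed such reads. Hsp90b1, which encodes the reticulum chaperone GRP94 (chromosome 10, 86690841 to 86705444), stood at 114, 111 and 148 FPKM in the mutants and 171 FPKM in HDQ+/+. All 3 mutants lay under the wild type, with log2 ratios of -0.58 in HDQ150/150, just under the fold, -0.62 in HDQ200/200 and -0.21 in HDQ315/+. Its ratios of scaled counts were 0.696 (95% counting interval 0.677 to 0.715), 0.690 (0.674 to 0.707) and 0.781 (0.762 to 0.801), and after correction for transcript length it lay at -0.57, -0.54 and -0.27. Its HDQ200/200 call ended there, as it did on scaled counts (-0.53) and with median centring (-0.56). These intervals, from the exact Clopper-Pearson method, cover counting error only. Of its exon bases, 15.7% lie in exons of other annotated genes.

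The other reticulum chaperones stayed inside the fold. Hspa5, which encodes BiP, the HSP70 of the reticulum, stood at 103, 91.2 and 119.7 FPKM in the mutants and 105 FPKM in HDQ+/+ (-0.03, -0.20 and 0.19). Dnajb9, a J-domain partner of BiP, stood at 30.1, 32.9 and 29.3 FPKM against 27.7 FPKM in HDQ+/+, and Dnajc3, a J-domain protein induced when the reticulum is stressed, at 12.6, 17.3 and 14.2 FPKM against 14.5 FPKM. Of the 9 reticulum members, none was higher in any mutant (backgrounds 2.92%, 5.37% and 2.90%). Hsp90b1 in HDQ200/200 was the single lower call (background 8.78%). Their medians were -0.07, 0.11 and -0.01.

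The HSP70 genes span the widest range of levels of any class. Hspa8, which encodes the constitutive HSC70 (chromosome 9, 40801276 to 40805202), stood at 915, 741 and 989 FPKM in the mutants and 803 FPKM in HDQ+/+ (0.19, -0.12 and 0.30), and was the highest chaperone gene in each library. Of the 50-base words of its transcript 73.2% occur in transcripts of other genes, 70.0% in those of Gm15459, so its count depends on how the authors placed such reads. Hspa9, the mitochondrial form, stood at 68.4, 72.1 and 83.4 FPKM against 82.9 FPKM in HDQ+/+, and Hspa2 at 13.6, 12.8 and 17.3 FPKM against 14.3 FPKM.

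Hspa1a and Hspa1b, the near-identical genes of the classical stress-inducible HSP70, were close to the level limit used. Hspa1a (chromosome 17, 34969359 to 34972156) stood at 1.75, 1.24 and 1.74 FPKM in the mutants and 1.17 FPKM in HDQ+/+, from 114, 136, 128 and 120 fragments. Hspa1b stood at 1.12, 1.01 and 1.07 FPKM in the mutants and 0.678 FPKM in HDQ+/+. Both genes were lowest in HDQ+/+. Of the 50-base words of Hspa1a 58.8% occur in Hspa1b, of those of Hspa1b 62.3% occur in Hspa1a, and 247 of their 250 promoter bases are identical, so the split between them is uncertain and their sum is firmer. The sum held 182, 240 and 201 fragments in the mutants and 185 in HDQ+/+, which gave ratios of scaled counts of 1.601 (1.30 to 1.97), 1.49 (1.22 to 1.81) and 1.57 (1.28 to 1.93). On FPKM + 1 no mutant passed the fold for Hspa1a (0.34, 0.05 and 0.34), and each ratio rests on the same wild-type library.

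The remaining HSP70 genes included 2 that passed the fold, 1 higher (background 5.37%) and 1 lower (background 8.78%), both in HDQ200/200. With so few genes, such counts do not set the class apart from all tested genes. Hspa12a, a distant relative of HSP70 (chromosome 19, 58795750 to 58943672), stood at 23.2, 27.6 and 19.2 FPKM in the mutants and 17.6 FPKM in HDQ+/+ and was called higher in HDQ200/200 (0.62, scaled counts 1.63, 1.57 to 1.70). It was highest in the homozygous mutants, but its call ended after length correction (0.37). The merged feature of Hspa1l and Lsm2 stood at 13.1, 6.33 and 12.5 FPKM against 11.5 FPKM in HDQ+/+ and was called lower in HDQ200/200 (-0.77). On scaled counts that difference was -0.14, and after length correction -0.56, both inside the fold. Lsm2 encodes an RNA-binding subunit unrelated to chaperones, and the feature does not part the fragments of the 2 genes.

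The HSP110 genes, which encode the nucleotide exchange factors of HSP70, passed the fold in no mutant (background 2.12% to 8.78%, by mutant and direction). Hsph1 stood at 93.5, 93.6 and 106 FPKM in the mutants and 114 FPKM in HDQ+/+, and Hspa4 at 40.6, 49.96 and 40.6 FPKM against 52.8 FPKM. Both were highest in HDQ+/+. Hspa4l stood at 22.5, 36.0 and 22.6 FPKM against 25.6 FPKM in HDQ+/+ and was highest in HDQ200/200 (0.48).

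The gene that differed most was a J-domain protein gene. Dnajb14, which encodes a J-domain protein anchored in the reticulum membrane with its J domain in the cytosol (chromosome 3, 137867675 to 137916563), stood at 6.03, 17.8 and 3.89 FPKM in the mutants and 6.87 FPKM in HDQ+/+, from 780, 3048, 525 and 1389 fragments. HDQ200/200 was far above the other 3 libraries and HDQ315/+ below them. Its log2 ratios were -0.16, 1.26 and -0.69, and its ratios of scaled counts 0.914 (0.836 to 0.998), 2.51 (2.36 to 2.68) and 0.547 (0.494 to 0.605). Both calls held after length correction, at 1.08 in HDQ200/200 and -0.60 in HDQ315/+. Dnajb12, the closest relative in the same membrane, stood at 15.5, 15.0 and 16.03 FPKM in the mutants and 16.3 FPKM in HDQ+/+ and did not share the pattern; it was picked for comparison after its values were seen.

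The J-domain proteins best known for acting on polyglutamine were near the wild type. Dnajb6 stood at 106, 85.4 and 116 FPKM in the mutants and 102 FPKM in HDQ+/+ (0.05, -0.26 and 0.18). Of the 50-base words of its transcript, 35.8% occur in transcripts of other genes, so its count depends on how such reads were placed. Dnajb2, which is enriched in neurons, stood at 46.3, 36.0 and 48.5 FPKM against 46.3 FPKM in HDQ+/+. Dnajb1, the inducible partner of HSP70, stood at 19.1, 17.8 and 18.3 FPKM against 17.1 FPKM in HDQ+/+ (0.15, 0.05 and 0.09), and Dnajb5 at 37.9, 26.2 and 31.6 FPKM against 30.1 FPKM. None of these passed the fold. Dnajb3, a gene known from testis, was low (1.59, 0.973 and 2.23 FPKM against 2.25 FPKM in HDQ+/+) and was called lower in HDQ200/200 (-0.72) on 27 fragments there and 63 in HDQ+/+. After length correction it lay at -0.25.

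All 4 DNAJA genes, the J-domain class closest to bacterial DnaJ, stayed inside the fold in each mutant (background 2.12% to 8.78%, by mutant and direction). Dnaja2 stood at 81.6, 80.1 and 90.8 FPKM in the mutants and 91.4 FPKM in HDQ+/+. Dnaja1, counted with the microRNA gene Mir207 inside it, stood at 50.9, 53.4 and 49.5 FPKM against 50.4 FPKM, and Dnaja4 at 17.2, 16.4 and 15.3 FPKM against 16.3 FPKM.

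Of the 25 DNAJC genes, 3 were lower in HDQ200/200 (background 8.78%) and 3 others higher in HDQ315/+ (background 2.90%). Dnajc8, which encodes a J-domain protein of the splicing machinery (chromosome 4, 132535559 to 132553742), stood at 59.3, 37.4 and 82.5 FPKM in the mutants and 72.9 FPKM in HDQ+/+. It was lowest in HDQ200/200, with log2 ratios of -0.29, -0.95 and 0.18. Its ratio of scaled counts in HDQ200/200 was 0.554 (0.525 to 0.585), and it kept its call there after length correction (-0.66). Dnajc7, which binds both HSP70 and HSP90, stood at 92.6, 70.7 and 127 FPKM against 115.5 FPKM in HDQ+/+ (-0.70 in HDQ200/200). Dnajc17, a nuclear J-domain protein with an RNA recognition motif, stood at 8.33, 5.02 and 11.5 FPKM against 8.81 FPKM in HDQ+/+ (-0.70 in HDQ200/200). The calls of Dnajc7 and Dnajc17 ended after length correction (-0.52 and -0.42) and on scaled counts (-0.52 and -0.39).

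The DNAJC genes higher in HDQ315/+ were Dnajc19, Dnajc15 and Dnajc4. Dnajc19 and Dnajc15, which encode J-domain proteins of the import motor of the mitochondrial inner membrane, stood at 40.7, 22.3 and 53.2 FPKM (Dnajc19) and 40.1, 25.4 and 49.2 FPKM (Dnajc15) in the mutants, against 33.4 and 29.5 FPKM in HDQ+/+. Both were highest in HDQ315/+, at log2 ratios of 0.66 and 0.72. Dnajc4 stood at 15.0, 8.49 and 16.2 FPKM against 10.3 FPKM in HDQ+/+ (0.61 in HDQ315/+), and was also above the wild type in HDQ150/150 (0.51). After length correction the 3 calls ended, at 0.32 for Dnajc19, 0.54 for Dnajc15 and 0.34 for Dnajc4. On scaled counts the calls of Dnajc19 (0.57) and Dnajc15 (0.15) ended, and with median centring that of Dnajc4 (0.56). HDQ315/+ had the highest Alb level and the highest sum of thalamic markers, and the part of liver and thalamic transcripts in these calls was not tested.

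Of the DNAJC genes, Dnajc5 and Dnajc6 were ordered alike across the libraries. Dnajc5, the cysteine string protein of synaptic vesicles, stood at 45.5, 58.5 and 35.6 FPKM in the mutants and 44.8 FPKM in HDQ+/+ (0.02, 0.38 and -0.33). Dnajc6, which encodes auxilin, a factor that strips clathrin from vesicles, stood at 36.8, 49.3 and 28.4 FPKM against 33.9 FPKM in HDQ+/+ (0.11, 0.53 and -0.25). Each was highest in HDQ200/200 and lowest in HDQ315/+, as were Dnajc10, Dnajc16, Dnajc27 and Dnajc28. Neither Dnajc5 nor Dnajc6 passed the fold against the wild type on FPKM + 1. Both are long, at 5.64 and 4.86 kb, and all tested genes over 4 kb had medians of 0.22 in HDQ200/200 and -0.11 in HDQ315/+. After length correction their HDQ315/+ against HDQ200/200 values were -0.41 and -0.57, inside the fold. On scaled counts Dnajc6 was past the fold in HDQ200/200 against HDQ+/+ (0.69, ratio 1.61, 1.56 to 1.66). The endosomal gene Dnajc13 stood at 7.85, 12.8 and 8.10 FPKM against 9.87 FPKM, and the ribosome-associated Dnajc2 at 19.3, 17.9 and 26.8 FPKM against 26.0 FPKM. The lowest of the class, Dnajc25, stood at 2.09, 1.76 and 1.93 FPKM against 1.93 FPKM in HDQ+/+.

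The mitochondrial chaperonin genes share the promoter printed above but not the pattern of FPKM. Hspd1, which encodes HSP60 (chromosome 1, 55077833 to 55088243), stood at 78.6, 84.0 and 92.8 FPKM in the mutants and 93.6 FPKM in HDQ+/+ (-0.25, -0.15 and -0.01). Hspe1, which encodes HSP10 (chromosome 1, 55088148 to 55091317), stood at 119.5, 74.6 and 159.8 FPKM in the mutants and 120.2 FPKM in HDQ+/+ (-0.01, -0.68 and 0.41). It was lowest in HDQ200/200, where it was called lower, and highest in HDQ315/+. The ratio of Hspe1 to Hspd1 on FPKM was 1.52, 0.889 and 1.72 in the mutants and 1.28 in HDQ+/+. The Hspe1 transcript is short, with an effective length of 0.475 kb against 1.72 kb for Hspd1, and its HDQ200/200 value after length correction was -0.11. On scaled counts, with no division by length, its ratio was 0.641 (0.597 to 0.688). Both transcripts share 50-base words with other genes, 36.1% for Hspe1 and 44.8% for Hspd1. Over the 8 mitochondrial members the medians were -0.00060, -0.20 and 0.15. Hspe1 was the single lower call, in HDQ200/200 (background 8.78%), and Dnajc15 and Dnajc19 were the 2 higher calls, in HDQ315/+ (background 2.90%).

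TRiC, the cytosolic chaperonin that folds actin and tubulin, showed no call in any mutant. Of all tested genes 2.12% to 8.78% were called, by mutant and direction, so with 8 genes the lack of a call does not set TRiC apart. Its 8 measured subunit genes lay between 47.3 (Cct3) and 80.1 FPKM (Cct8) on average, so the highest was less than 2-fold over the lowest. Tcp1 stood at 61.0, 60.3 and 67.1 FPKM in the mutants and 67.0 FPKM in HDQ+/+. Cct2 stood at 74.1, 64.7 and 89.3 FPKM against 74.2 FPKM, Cct8 at 79.5, 72.5 and 91.0 FPKM against 77.5 FPKM, and Cct3 at 46.7, 38.7 and 55.5 FPKM against 48.4 FPKM. The medians over the subunits were -0.04, -0.22 and 0.18. Cct6b, a paralog known from testis, lay between 0.0563 and 0.105 FPKM.

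The 4 small heat shock protein genes that passed the level limit had a median of mean FPKM of 8.43. Of them, 1 was lower in HDQ200/200 (background 8.78%) and 1 higher in HDQ315/+ (background 2.90%). Hspb1 stood at 10.98, 7.05 and 14.7 FPKM in the mutants and 9.52 FPKM in HDQ+/+. At 0.58 it lay just under the fold in HDQ315/+, where its ratio of scaled counts was 1.67 (1.42 to 1.97). Of the 50-base words of its transcript, 51.6% occur in those of Hsp25-ps1. Its count depends on how such reads were placed, which the interval does not cover. Hspb8, the partner of Bag3 in the disposal of aggregates (chromosome 5, 116408491 to 116422864), stood at 6.22, 5.001 and 6.83 FPKM against 8.29 FPKM in HDQ+/+ and was called lower in HDQ200/200 (-0.63, scaled counts 0.608, 0.529 to 0.697). It was highest in HDQ+/+, and its call ended after length correction (-0.45) and with median centring (-0.58). Hspb11, which despite its name encodes a protein of intraflagellar transport, stood at 8.83, 8.09 and 14.8 FPKM against 9.40 FPKM in HDQ+/+ and was called higher in HDQ315/+ (0.60). That call ended after length correction (0.27), on scaled counts (0.53) and with median centring (0.55). Markers of ependyma and motile cilia summed to 16.9, 18.8 and 40.1 FPKM in the mutants and 32.9 FPKM in HDQ+/+, and their part in that call was not tested. Hspb6 stood at 3.95, 3.42 and 5.52 FPKM against 4.44 FPKM. Under the level limit, Hspb3 stood at 1.91, 1.09 and 0.384 FPKM in the mutants and 0.463 FPKM in HDQ+/+.

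The heat shock factor genes themselves did not differ by the fold. Hsf1 stood at 12.3, 9.85 and 13.6 FPKM in the mutants and 11.1 FPKM in HDQ+/+ (0.14, -0.15 and 0.28), and Hsf2 at 9.78, 10.7 and 10.6 FPKM against 10.3 FPKM (-0.07, 0.05 and 0.04). The activity of HSF1 is set mainly on the protein and cannot be read from its transcript. Of 21 genes of the inducible heat shock response, 20 passed the level limit, 14 of them among the 73. The one left out was Hspa1b, with ratios of scaled counts of 1.70 (1.19 to 2.43), 1.83 (1.33 to 2.54) and 1.62 (1.15 to 2.31) in the mutants. Of the 20, none was past the fold on FPKM + 1 in HDQ150/150 (background 2.92% higher, 3.32% lower) or HDQ315/+ (2.90% and 2.12%). In HDQ200/200 none was higher (background 5.37%) and 2, Hspe1 and Hspb8, were lower than the fold (background 8.78%). On scaled counts Hspa1a was past the fold in HDQ150/150 (0.63) and HDQ315/+ (0.63), and Hspb1 in HDQ315/+ (0.74, and 0.63 with a pseudocount of 0.1). The transcripts of Hspa1a and Hspb1 share many of their 50-base words with other genes, so these counts are uncertain. The medians of the list on FPKM + 1 were -0.01, -0.17 and 0.07. Of the non-members in that list, Cryab stood at 107, 70.3 and 103 FPKM in the mutants and 91.5 FPKM in HDQ+/+, Bag3 at 3.46, 3.74 and 4.12 FPKM against 3.94 FPKM, and Stip1, the adaptor between HSP70 and HSP90, at 63.6, 47.7 and 71.9 FPKM against 54.0 FPKM.

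Some partners outside the family also passed the fold. Of 25 co-chaperone genes that are not among the 73, Bag2 was higher in HDQ150/150 (3.18 FPKM against 1.69 FPKM in HDQ+/+, 0.64). In HDQ200/200, Cdc37l1, a relative of the kinase adaptor of HSP90, was higher (45.5 FPKM against 25.1 FPKM, 0.83), and Stub1, which encodes the ubiquitin ligase CHIP that marks chaperone clients, was lower (46.2 FPKM against 79.3 FPKM, -0.77). None of the 25 passed the fold in HDQ315/+. Of all tested genes, 2.92% were higher and 3.32% lower in HDQ150/150, and 5.37% and 8.78% in HDQ200/200. In HDQ315/+ these shares were 2.90% and 2.12%. With so few genes, such counts do not set the list apart from all tested genes. Of 18 other chaperone genes tested, none passed in HDQ150/150 or HDQ315/+, and 2 were lower in HDQ200/200 (background 8.78%). These were Pfdn2 (58.9 FPKM against 105 FPKM, -0.83) and Pfdn5 (125 FPKM against 206 FPKM, -0.72), subunits of prefoldin, which hands actin and tubulin to TRiC. Both are short, at 0.605 and 0.675 kb, and all tested genes under 1 kb had a median of -0.52 in HDQ200/200. Their ratios of scaled counts were 0.616 (0.575 to 0.660) and 0.653 (0.624 to 0.683). Length-corrected values of these co-chaperones and other chaperones are not given here. Of the names that only share the letters, Hspbp1, an exchange factor of HSP70, stood at 42.4, 24.1 and 39.4 FPKM in the mutants and 32.9 FPKM in HDQ+/+, and Hspbap1 at 1.35, 1.72 and 1.63 FPKM against 1.45 FPKM.

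The size and sign of the differences went with transcript length in HDQ200/200 and HDQ315/+. Effective length was taken from the scaled count per FPKM of each gene. Across the 73 genes, Spearman's rho between length and log2 ratio was -0.17 in HDQ150/150, 0.64 in HDQ200/200 and -0.58 in HDQ315/+, and across all 12875 tested genes it was -0.20, 0.59 and -0.47. These are descriptions across genes of the same libraries, and both axes use the FPKM. The 7 chaperone genes under 1 kb had medians of 0.07, -0.45 and 0.58, and the 13 over 4 kb had -0.08, 0.33 and -0.23, so in HDQ200/200 short genes were low and long ones high, and in HDQ315/+ the reverse. All tested genes under 1 kb had 0.11, -0.52 and 0.31, and those over 4 kb had -0.07, 0.22 and -0.11. With the differences corrected by the trend of all genes, the medians of the 73 were -0.03, -0.01 and -0.02. The calls against HDQ+/+ were then Dnajb14 higher and Dnajc8 lower in HDQ200/200, and Dnajb14 lower in HDQ315/+.

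**Figure D3:**
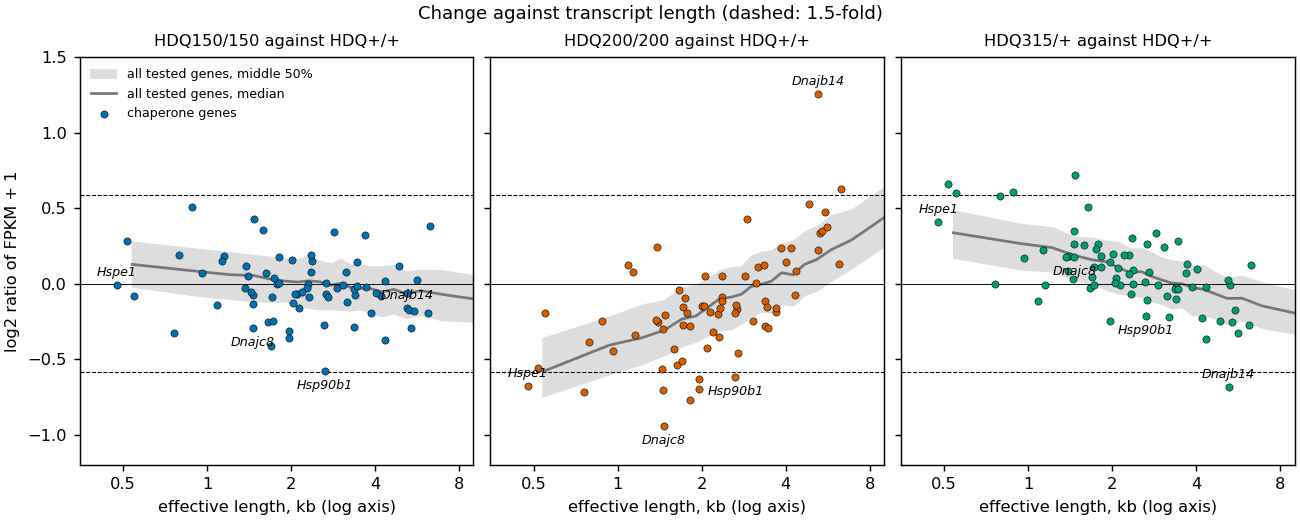
Log2 ratio of FPKM + 1 to HDQ+/+ (y axis) against effective transcript length in kb (x axis, log scale) for the 73 chaperone genes (points) over the median and the middle 50% of all tested genes (line and band), 1 panel per mutant. The points follow the band upward in HDQ200/200 (rho 0.64) and downward in HDQ315/+ (rho -0.58), and Dnajb14 stands off it in both.

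The deposited count values give a second reading of the same fragments, and for a few genes it differed from FPKM. For Dnajc15 the FPKM was lower in HDQ200/200 and higher in HDQ315/+ than in HDQ+/+, but the ratios of scaled counts were 1.07 (0.995 to 1.15), 1.13 (1.06 to 1.21) and 1.11 (1.04 to 1.19) in the 3 mutants. The length that its 2 values imply was 1.202, 2.12 and 1.09 kb in the mutants and 1.69 kb in HDQ+/+, so each library divided the fragments of this gene by another length. The merged features of Dnajc14 with Sarnp and of Hspa1l with Lsm2 differed likewise. For Dnajb14, Hsp90b1, Hspe1 and Dnajc8 both readings had the same sign in HDQ200/200. Exons of other genes, all or nearly all on the opposite strand, cover 71.9% of the exon bases of Hspa1l, 44.1% of Dnaja4, 26.2% of Dnajc30, 19.9% of Dnajc14 and 19.01% of Hspa1a, so without a stated strand setting their counts are uncertain.

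**Figure D4:**
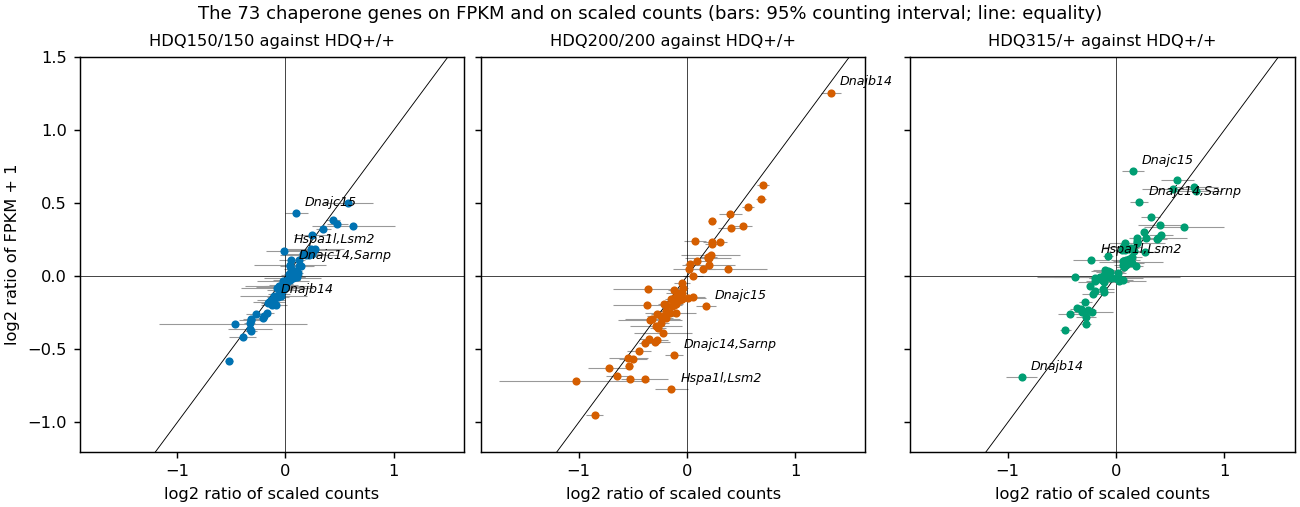
Log2 ratio of FPKM + 1 (y axis) against log2 ratio of scaled counts (x axis) to HDQ+/+ for the 73 chaperone genes, 1 panel per mutant, with 95% counting intervals as bars and the line of equality. Dnajb14 lies near the line at the top right of the HDQ200/200 panel, while Dnajc15 and the merged features lie off it.

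Between the homozygous mutants more chaperone genes passed the fold than between either of them and HDQ+/+. In HDQ200/200 against HDQ150/150, 3 chaperone genes were higher (background 7.62%) and 9 lower (background 10.7%). The higher ones were Dnajb14 (1.42), Hspa4l (0.66) and Dnajc13 (0.64), all over 4 kb, and the lower ones Hspa1l with Lsm2 (-0.95), Dnajc19 (-0.84), Hspbp1 (-0.79), Dnajc4 (-0.75), Hspe1 (-0.67), Dnajc8 (-0.65), Dnajc15 (-0.64), Dnajc17 (-0.63) and Dnajc14 with Sarnp (-0.61). In HDQ315/+ against HDQ150/150, Hspb11 alone was higher (0.68, background 2.51%) and none was lower (background 1.93%), with Dnajb14 at -0.52. In HDQ315/+ against HDQ200/200, 15 were higher (background 18.2%) and 5 lower (background 11.0%). Dnajc19 (1.22), Dnajc8 (1.12) and Hspe1 (1.09) were the highest, and Dnajb14 (-1.94), Dnajc6 (-0.77) and Dnajc5 (-0.70) the lowest. The other lower ones were Hspa4l (-0.65) and Dnajc13 (-0.60), and the merged feature of Dnajc14 and Sarnp (63.1 FPKM against 30.0 FPKM, 1.05), Dnajc30 (35.3 FPKM against 22.7 FPKM, 0.62) and Dnajc9, which binds histones (22.4 FPKM against 14.5 FPKM, 0.60), were higher. Also higher were Dnajc17 (1.05), Hspb1 (0.97), Dnajc15 (0.93), Hspa1l with Lsm2 (0.88), Dnajc4 (0.86), Dnajc7 (0.84), Hspb11 (0.79), Dnajb3 (0.71) and Hspbp1 (0.69). All 7 chaperone genes under 1 kb were higher and all 5 lower calls were over 4 kb. All tested genes had a median of 0.83 under 1 kb, itself past the fold, and of -0.31 over 4 kb. After length correction 2 features were higher in that pair, Dnajc8 and Dnajc14 with Sarnp, and 3 lower, Dnajb14, Dnajb9 and Cct6a. The share of genes past the fold in at least 1 of the 6 comparisons was 23 of 73, against 37.5% of all tested genes.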

How the data were processed

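Poly A+ RNA of dissected striatum from 4 genotypes, 1 library each, was sequenced as paired ends of 50 bases, per the labels' protocols. Per the file headers, the deposited table has FPKM and counts of 29144 features for each library. Per the submitters' processing notes the data were made with Cufflinks 2.1.1, Cuffdiff, Cuffnorm, TopHat2 2.0.11, Bowtie2 2.1.0 and bcl2fastq 1.8.4 on mm10, roles and order not stated. Which annotation was used, whether strand was counted and how the libraries were scaled is not given in the sources used here. FPKM values were used as the authors deposited them. The deposited counts had been rescaled and are treated as a signal, since 97.4% to 98.2% of them, by library, fell within 0.05 of a whole multiple of 1 step, and division by that step gave the fragments (25058760 in HDQ150/150, 33468930 in HDQ200/200, 26324892 in HDQ315/+ and 36877644 in HDQ+/+).

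Left out were 5934 features without a gene name, which held 0.675% to 0.829% of the scaled counts, and 709 short non-coding genes. A gene entered at a mean of at least 1 FPKM. Differences are of log2(FPKM + 1), called from 1.5-fold, with no p-value. Count ratios carry exact Clopper-Pearson 95% intervals. Such intervals cover counting error only. Length correction subtracted a lowess trend (fraction 0.3) of all tested genes. The steps were checked on simulated data. Gene coordinates and promoters are RefSeq's (GRCm38.p6), and shared words and overlapping exons come from GENCODE M21. Python 3.11.15, pandas 2.3.3, numpy 2.4.6, scipy 1.17.1, statsmodels 0.14.6 and matplotlib 3.10.9 were used.

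The genes and lists were chosen with earlier results of these data known. Genes named in the text are a core set chosen for role, every gene past 1.5-fold in any of the 6 comparisons, the 3 highest and 3 lowest in each, the highest and lowest mean level in each subfamily, and the 3 names on each side of the level limit. Of other chaperones and co-chaperones, those past the fold in a mutant were named with Cryab, Bag3, Stip1 and Stub1. The alternatives were a pseudocount of 0.1, a mean of at least 10 FPKM, no level limit, median centring, scaled counts and length correction.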

Additional observations from a re-analysis of the deposited data

How the results depend on the processing

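No paired analysis was possible because each genotype has 1 library, and no library could be left out. The share of all tested genes called the same way stands in parentheses after each count. Not every count that moved is listed, so a setting left out may also have moved it. With median centring, Hsp90b1 and Hspb8 lost their lower calls in HDQ200/200 against HDQ+/+. Without a level limit, Hspb3 was lower in HDQ315/+ against HDQ200/200 (-0.59). Against HDQ+/+, the count of chaperone genes higher in HDQ200/200 was 2 (5.37%) and became 1 at 10 FPKM (3.47%) and 1 after length correction (3.39%). The lower count there was 8 (8.78%) and became 5 at 10 FPKM (12.05%), 4 on scaled counts (7.99%) and 1 after length correction (3.54%). In HDQ315/+ the higher count was 4 (2.90%) and became 2 with median centring (2.28%) and 0 after length correction (1.69%), and the lower count was 1 (2.12%) and became 0 at 10 FPKM (2.06%). In HDQ150/150 the higher count was 0 (2.92%) and became 1 without a level limit (2.14%), by Hspb3, and 1 on scaled counts (5.51%), by Hspa1a. For HDQ200/200 against HDQ150/150 the higher count of 3 (7.62%) became 1 at 10 FPKM (5.85%), and the lower count of 9 (10.7%) became 4 on scaled counts (12.3%) and 1 after length correction (2.05%). For HDQ315/+ against HDQ150/150 the higher count of 1 (2.51%) became 0 after length correction (1.71%), and the lower count of 0 (1.93%) became 1 with a pseudocount of 0.1 (2.97%), 2 without a level limit (1.48%) and 1 on scaled counts (3.82%). For HDQ315/+ against HDQ200/200 the higher count of 15 (18.2%) became 2 after length correction (4.19%), and the lower count of 5 (10.98%) became 3 at 10 FPKM (8.36%) and 3 after length correction (7.63%). The cause was not tested.

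Among named genes, 8 of 48 calls were kept, 40 lost and 1 gained after length correction, 29 were kept, 19 lost and 6 gained on scaled counts, 38 were kept, 10 lost and 1 gained with median centring, and 48 were kept and 6 gained with a pseudocount of 0.1. Among calls past the fold, signs turned on scaled counts for Dnajc15 in HDQ200/200 against HDQ150/150 (0.077) and in HDQ315/+ against HDQ200/200 (-0.021), and for Hspa1l with Lsm2 in HDQ315/+ against HDQ200/200 (-0.084). After length correction they turned for Hspe1 in HDQ200/200 against HDQ150/150 (0.024) and, in HDQ315/+ against HDQ200/200, for Dnajb3 (-0.041), Dnajc30 (-0.046) and Hspb11 (-0.068). Between HDQ315/+ and HDQ200/200 the median of all tested genes was 0.11, and centring on it turned their split of 2343 higher and 1414 lower to 1665 and 1981. Depth limits the genes near 1 FPKM, such as Dnajb3 with 27 fragments in HDQ200/200.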
